A study of Mus musculus with 9 samples.

Results

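Ucp1, the gene that marks brown and beige fat, had the second-largest SD among the 41174 probes measured in the lactating mammary gland, with the genotypes overlapping. Its signal was not above background in 2 glands, and 2 of 4 WT glands stood far above every hNAG-1 gland while the other 2 WT glands lay below most of them. The set described here holds 10 genes of brown fat and heat production, chosen by name: Ucp1, Ucp2, Ucp3, Ppargc1a, Ppargc1b, Prdm16, Dio2, Cox7a1, Cox8b and Elovl3. They are 10 of 27962 gene names on the array, and every probe that carries 1 of these names was taken, which gave 15 probes.

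RNA came from mammary gland number 4 on lactation day 2 (L2) and each of 9 dams, 4 WT and 5 hNAG-1, gave 1 array. The transgene drives human NAG-1 (also named GDF15) in all tissues of hNAG-1 dams, which are labeled as overexpressing, while WT dams lack it. Both genotypes carry the strain label C57BL/7, which differs from the strain name in the study's text. No age in weeks is given with the arrays, and dams of the breeding study had borne several litters. The methods centre on 1 transgenic line and pool it with another in some experiments, without saying which line gave each array, and the human transgene itself was not analysed here. Gland number 4 is a whole organ with milk-producing epithelium, a fat pad and a lymph node, so that fewer cells of a type and less RNA per cell cannot be told apart in any value below.

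Brown and beige adipocytes burn fuel to make heat. Noradrenaline acts on β-adrenergic receptors of these cells, cAMP and protein kinase A follow, and CREB family factors and nuclear receptors with their coactivators switch on the thermogenic genes. UCP1 then lets protons pass the inner mitochondrial membrane without making ATP, while type 2 deiodinase, made from Dio2, raises the active thyroid hormone inside the cell. Brown-like fat cells can lie within subcutaneous fat pads, the mammary fat pad among them.

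The array reads Ucp1 with a single probe of 60 bases. It is placed at chr8:81866808-81866867 on mouse build mm7 by the array design, on the plus strand, and is shown because every Ucp1 value below rests on this 1 sequence.

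Ucp1 probe: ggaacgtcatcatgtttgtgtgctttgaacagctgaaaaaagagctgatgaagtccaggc

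The 250 bases before the start of Ucp1, Cox7a1 and Dio2 are shown next, because of the other 9 genes Cox7a1 and Dio2 had the highest correlations with Ucp1 over the arrays, as described further on. They are RefSeq sequences on GRCm38.p6, at chr8:83290098-83290347 on the plus strand for Ucp1, at chr7:30183921-30184170 on the plus strand for Cox7a1 and at chr12:90739039-90739288 on the minus strand for Dio2. Capitals mark the letters AGGTCA, a nuclear receptor half-site, TGACG, the core of the cAMP response element to which CREB binds, TATAAA, the TATA box, and CCAAT, the CCAAT box, each searched on both strands. A match on the other strand is capitalised as its reverse complement, which is ATTGG for CCAAT.

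Ucp1 promoter: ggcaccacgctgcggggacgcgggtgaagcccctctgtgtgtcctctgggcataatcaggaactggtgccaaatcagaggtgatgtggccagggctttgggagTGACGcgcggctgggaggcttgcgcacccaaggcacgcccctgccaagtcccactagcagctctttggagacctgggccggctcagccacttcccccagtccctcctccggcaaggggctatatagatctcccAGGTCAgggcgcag

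Cox7a1 promoter: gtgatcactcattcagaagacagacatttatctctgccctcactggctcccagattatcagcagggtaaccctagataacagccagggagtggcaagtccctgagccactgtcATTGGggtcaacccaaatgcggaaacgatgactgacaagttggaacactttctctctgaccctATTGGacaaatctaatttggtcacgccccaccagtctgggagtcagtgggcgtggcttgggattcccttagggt

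Dio2 promoter: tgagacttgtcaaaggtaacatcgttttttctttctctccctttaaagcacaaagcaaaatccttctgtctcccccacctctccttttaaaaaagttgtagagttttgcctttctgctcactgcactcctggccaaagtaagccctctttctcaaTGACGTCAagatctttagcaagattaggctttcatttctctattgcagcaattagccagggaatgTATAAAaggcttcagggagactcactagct

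In Dio2 the core lies on both strands, and the matches overlap in TGACGTCA. RefSeq promoters were matched for 8 of the 10 genes, with Ppargc1b and Elovl3 not listed. TGACG was in 4 of these 8 (Ppargc1a, Ucp2, Ucp1 and Dio2) and in 17.8% of 32851 mouse promoters of the same length. AGGTCA was in 2 (Ucp1 and Ucp3) and in 14.0% of all. The Cox7a1, Cox8b and Prdm16 windows held neither. TATAAA was in Dio2 alone among the 8 and in 12.4% of all, and CCAAT was in Prdm16 and Cox7a1 and in 33.8% of all. These matches describe letters only.

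Every value below is a scaled intensity, the background-subtracted brightness of a probe after each array was brought to the same 75th percentile, and differences are log2 fold changes of hNAG-1 over WT. An intensity has meaning between arrays for 1 probe and not between probes. Between 59.8% and 76.1% of features were well above background on an array. The share was 69.0%, 76.1%, 70.0% and 71.3% in WT 1 to 4. It was 69.7%, 60.3%, 64.6%, 59.8% and 73.3% in hNAG-1 1 to 5, so that the lowest shares were in hNAG-1. Of the 3 slides, slide 1 carried WT 1 alone and slide 2 carried 4 hNAG-1 arrays, 1 to 4, so that slide 3, with WT 2, WT 3, WT 4 and hNAG-1 5, was the only one with both genotypes. A genotype difference with slide as a block therefore rests on hNAG-1 5 against 3 WT arrays of slide 3. WT 2 and hNAG-1 4 stood apart in leukocyte markers, 12 genes whose summed intensity was 214400 and 216684 on these arrays and between 62995 and 130048 on the other 7. Skeletal muscle markers differed most between arrays among the cell types listed, and their values are given beside Ucp1.

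Of the 15 probes, 12 were well above background on all 9 arrays and none was saturated. None differed between WT and hNAG-1 at an unadjusted p under 0.05 in limma, against 5.6% of all probes. None passed after Benjamini-Hochberg adjustment over all probes, against 0.00243%, and the adjusted p of the 15 ran from 0.661 to 0.980. The intensities of the genotypes overlapped for every one of the 15, while they did not overlap for 1.35% of all probes. In exact permutation tests over 126 splits of the arrays, where the smallest p is 0.00794, no probe fell under 0.05 either, and the lowest was 0.127. The difference was above 0 for 9 of 15 probes and below 0 for 6, with a median of 0.17, beside 47.9% above 0 and a median of -0.02 over all probes. With arrays scaled to their median instead, 12 of 15 lay above 0, Ucp3, Cox7a1 and Cox8b among them, and the median of all probes was 0.20. With slide as a block 6 of the 15 changed direction, none had an unadjusted p under 0.05, against 7.61% of all probes, and the median of all probes moved to 0.19.

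**Figure D1:**
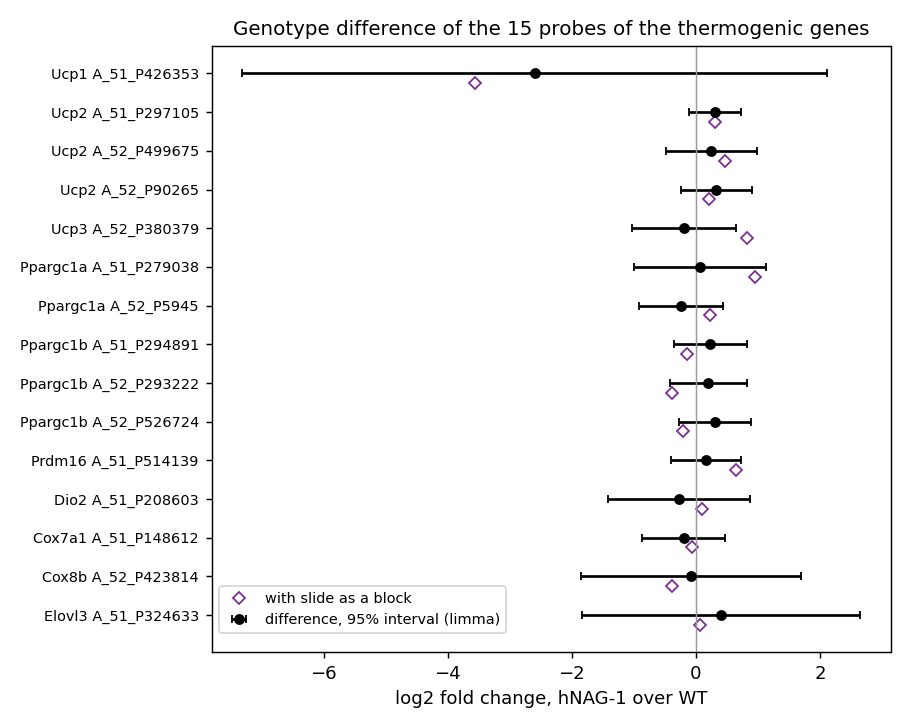
Log2 fold change of hNAG-1 over WT for each of the 15 probes, with the 95% interval from limma (4 WT and 5 hNAG-1 arrays) as bars and the value with slide as a block as open diamonds. All 15 intervals include 0, and the Ucp1 interval, from -7.31 to 2.12, is the widest.

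Ucp1, the proton leak of the brown fat mitochondrion, read 21.0, 32.6, 4937 and 9652 in WT 1 to 4. It read 54.1, 49.3, 913, 7.23 and 98.0 in hNAG-1 1 to 5. The values of WT 1 and hNAG-1 4 were not well above background, so that Ucp1 was measured in 3 of 4 WT and 4 of 5 hNAG-1 glands. WT 3 and WT 4 were the highest of all, hNAG-1 3 came next, and the other 6 arrays lay at 98.0 or below, with both genotypes among them. The highest array was 296-fold above the lowest array that was measured.

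The log2 fold change of Ucp1 was -2.59 with an SE of 2.09 and a 95% interval from -7.31 to 2.12. The limma test gave an adjusted p of 0.669 and the exact permutation test, two-sided, gave p = 0.302. In size the difference lay between the SD of log2 intensity within hNAG-1, 2.50, and that within WT, 4.67. Leaving out 1 array moved it between -4.04 and -1.09, the latter without WT 4, and with slide as a block it was -3.56 with an SE of 3.38.

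The SD of log2 Ucp1 intensity over the 9 arrays was 3.63, where the median SD of all probes was 0.38. Only Dkk1, a Wnt inhibitor, had a larger SD, at 5.08, and with features that carry an outlier flag left out Ucp1 had the rank 1. The next were Myh4, a fast myosin of skeletal muscle, at 3.31, and Tnnc2, the troponin C of fast muscle, at 3.31. With intensities under 20 raised to 20, Ucp1 had an SD of 3.43 and the rank 2. With normexp background correction the SD was 2.72 and the rank 6.

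**Figure D2:**
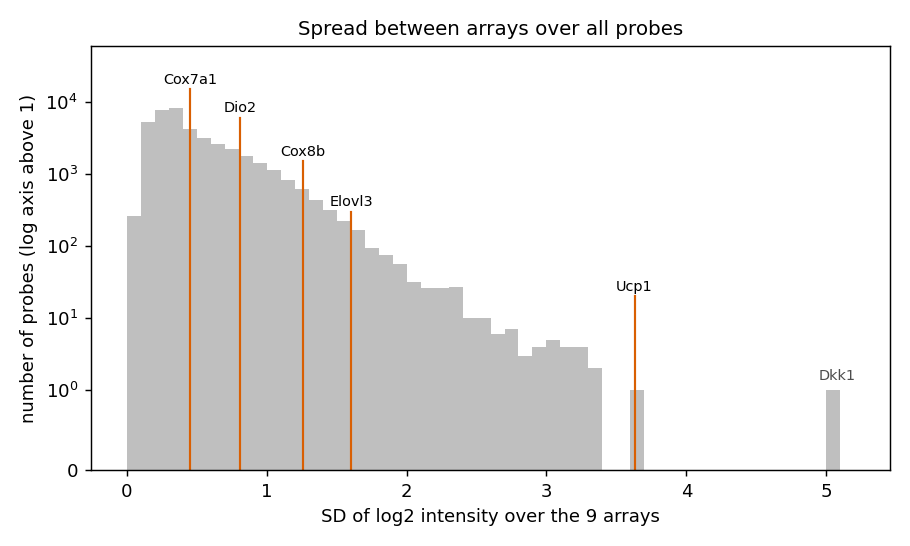
Number of probes (log axis above 1) by the SD of their log2 intensity over the 9 arrays, in steps of 0.1, with the SD of 5 thermogenic genes as lines. Ucp1 at 3.63 stands to the right of all probes but Dkk1, whereas Cox7a1 at 0.45 lies in the bulk.

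The other uncoupling proteins did not share this spread. Ucp2, expressed in many tissues and in leukocytes, has 3 probes, whose starts lie 2528 and 1681 bases apart on chromosome 7 of mm7. Its brightest probe, A_51_P297105, read 1929, 2138, 1553 and 2172 in WT and 1949, 2900, 2930, 1994 and 2386 in hNAG-1. Of 5 hNAG-1 arrays, 3 lay above all WT arrays, and hNAG-1 1 and hNAG-1 4 lay within the WT range. The log2 fold change was 0.31 with an SE of 0.19 and a 95% interval from -0.11 to 0.73 (exact permutation p = 0.127).

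The other Ucp2 probes gave differences of 0.25 with an SE of 0.32 (A_52_P499675) and 0.33 with an SE of 0.26 (A_52_P90265). At A_52_P499675 the WT arrays were nearly alike, from 66.5 to 69.5, while hNAG-1 ran from 46.0 to 161. A_52_P90265 read 259, 378, 281 and 362 in WT and 246, 581, 480, 366 and 393 in hNAG-1. Without hNAG-1 1 its difference was 0.50 with an unadjusted p of 0.045 in limma, the only such value among 135 differences of the 15 probes with 1 array left out. Without hNAG-1 2 it was 0.19, and without hNAG-1 3 the difference of A_52_P499675 was 0.0038. Over the 9 single arrays left out, A_51_P297105 lay between 0.21 and 0.38. None of the 3 probes passed the test with all 9 arrays.

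Ucp3 is the uncoupling protein of skeletal muscle and brown fat and lies beside Ucp2 on chromosome 7. It read 1243, 1412, 1058 and 1386 in WT and 649, 1400, 1295, 628 and 2268 in hNAG-1. The WT arrays lay close together and inside the range of hNAG-1, whose highest array was 3.61-fold above its lowest. Its log2 fold change was -0.19 with an SE of 0.37 (exact permutation p = 0.683). Leaving out 1 array moved it between -0.45, without hNAG-1 5, and 0.013, without hNAG-1 4. With slide as a block it turned to 0.83 with an SE of 0.52, with hNAG-1 5, the highest array, set against WT 2 to 4.

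The coactivators and the fate regulator came next. Ppargc1a encodes PGC-1α, the coactivator that cold induces and that drives mitochondrial genes, and it has 2 probes. A_51_P279038 read 137, 204, 62.7 and 192 in WT and 72.4, 169, 201, 89.4 and 261 in hNAG-1. WT 3, which was high in Ucp1, had the lowest Ppargc1a of all 9 arrays on this probe, and the genotypes overlapped over nearly their whole range. The differences were 0.06 with an SE of 0.47 on this probe and -0.24 with an SE of 0.30 on A_52_P5945, which was not well above background in hNAG-1 4. Leaving out 1 array moved the first between -0.31, without WT 3, and 0.31, without hNAG-1 1, and the other between -0.43, without WT 3, and -0.012, without hNAG-1 4. With slide as a block they were 0.95 and 0.23.

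Ppargc1b encodes PGC-1β, the related coactivator of mitochondrial and lipid genes. Its brightest probe, A_51_P294891, read 1175, 1053, 2072 and 2041 in WT and 1911, 1674, 2496, 1506 and 1488 in hNAG-1. WT 1 and WT 2 were the lowest of the 9 arrays and hNAG-1 3 the highest. Its 3 probes gave differences of 0.24, 0.20 and 0.31, each with an SE between 0.26 and 0.27. Without WT 2 they were 0.061, 0.037 and 0.18. With slide as a block all 3 turned below 0, to -0.15, -0.38 and -0.20.

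Prdm16 encodes the zinc finger factor that sets brown against muscle fate and that keeps beige cells thermogenic. It read 899, 627, 693 and 889 in WT and 562, 683, 1050, 1028 and 1141 in hNAG-1. Of 5 hNAG-1 arrays, 3 lay above all WT arrays and hNAG-1 1 was the lowest of all. Its log2 fold change was 0.17 with an SE of 0.25 (exact permutation p = 0.508), and the highest array was 2.03-fold above the lowest. It was 0.064 without hNAG-1 5, 0.32 without hNAG-1 1 and 0.65 with slide as a block.

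Dio2, whose enzyme turns thyroxine into the active hormone triiodothyronine, read 160, 73.6, 211 and 335 in WT. It read 124, 123, 296, 66.9 and 186 in hNAG-1. WT 4 and hNAG-1 3 were the highest and hNAG-1 4 and WT 2 the lowest, so that each genotype held both a high and a low array. The log2 fold change was -0.27 with an SE of 0.51 (exact permutation p = 0.643), and 0.10 with slide as a block. It was -0.67 without WT 2 and 0.059 without WT 4.

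Cox7a1 and Cox8b encode the forms of 2 small cytochrome c oxidase subunits that heart, skeletal muscle and brown fat use. Cox7a1 read 5084, 3003, 6689 and 8206 in WT and 4679, 4584, 5981, 3395 and 5246 in hNAG-1. WT held both the lowest and the highest array, and the difference was -0.20 with an SE of 0.30 (exact permutation p = 0.556). It was -0.48 without WT 2, 0.0068 without WT 4 and -0.06 with slide as a block.

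Cox8b read 615, 1205, 4270 and 12602 in WT and 2559, 3547, 2227, 1238 and 3072 in hNAG-1. All hNAG-1 arrays lay between the second and the third WT array, as ordered by level. The WT range was 20.5-fold and the hNAG-1 range 2.87-fold, and whether the spread differed between genotypes was not tested. Cox8b differed by -0.08 with an SE of 0.79 (exact permutation p = 0.952). Leaving out WT 4 turned it to 0.70 and leaving out WT 1 moved it to -0.75.

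Elovl3, a fatty acid elongase that cold induces in brown fat, read 13.7, 24.4, 212 and 437 in WT. It read 45.5, 157, 155, 61.3 and 137 in hNAG-1. The value of WT 1 was not well above background, and all 5 hNAG-1 arrays again lay between the lower and the upper pair of WT arrays. Elovl3 differed by 0.40 with an SE of 0.99 and a 95% interval from -1.84 to 2.64 (exact permutation p = 0.722). It was -0.41 without WT 1 and 1.25 without WT 4.

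**Figure D3:**
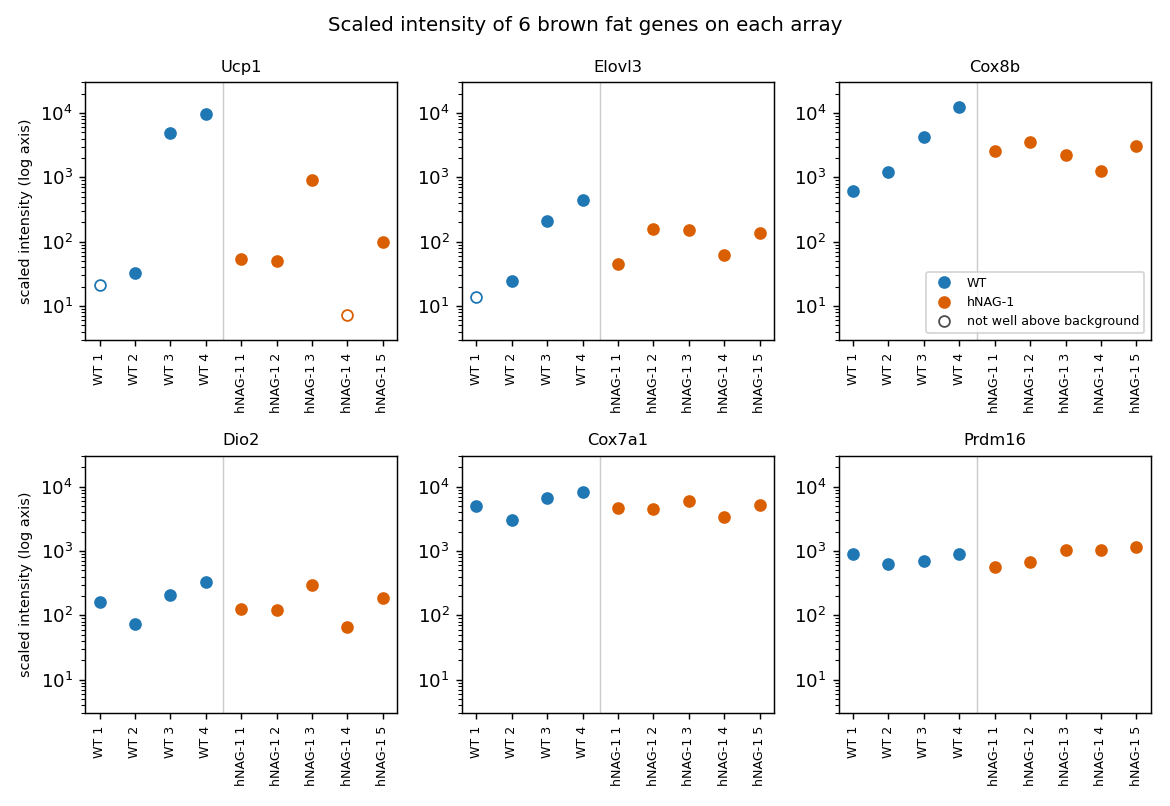
Scaled intensity (log axis) of 6 of the genes on each array, with WT in blue, hNAG-1 in orange and open circles for values not well above background. WT 3 and WT 4 are high and WT 1 and WT 2 low for Ucp1, Elovl3 and Cox8b, with the hNAG-1 arrays between the pairs for Elovl3 and Cox8b, while Prdm16 shows no such split. Levels are not comparable between panels.

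Since Ucp1 varied so much between mice, each other probe of the set and 5 lists of cell type markers were set against it over the 9 arrays, on the log2 scale, as a family of 19 relations. A list entered as the mean log2 value of its genes, each gene centred on its mean over the arrays. Cox7a1 had the highest Pearson r, 0.87 (exact permutation p = 0.00243, adjusted p = 0.0452), with a Spearman rho of 0.87 (adjusted p = 0.0428). Dio2 followed with an r of 0.84 (exact permutation p = 0.00476, adjusted p = 0.0452) and a rho of 0.88 (adjusted p = 0.0428). These adjusted values are over the 19 relations, by Benjamini-Hochberg.

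Cox8b had an r of 0.79 (exact permutation p = 0.00749, adjusted p = 0.0475), while its rho of 0.80 had an adjusted p of 0.0818. Elovl3 had an r of 0.77 (exact permutation p = 0.0149, adjusted p = 0.0566) and a rho of 0.78. WT 3 and WT 4 were the arrays farthest from the Ucp1 median. Without them r was 0.85 for Dio2 (exact permutation p = 0.0157, n = 7). It was 0.70 for Cox7a1 (exact permutation p = 0.0756, n = 7), 0.50 for Cox8b and 0.56 for Elovl3, and these relations rested in part on the 2 glands with most Ucp1. The p-values over 7 arrays are not adjusted over the 19 relations, and the 7 arrays include WT 1 and hNAG-1 4, where Ucp1 was not above background.

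Each slide held at most 4 arrays, too few for an r of its own. With every array centred on its slide, over the 8 arrays of slides 2 and 3, r was 0.90 for Dio2, 0.93 for Cox7a1, 0.77 for Cox8b and 0.80 for Elovl3. The 3 Ppargc1b probes had an r with Ucp1 of 0.70, 0.52 and 0.60 over all arrays, with adjusted p of 0.108 or more, and of 0.96, 0.84 and 0.98 within slides. Prdm16, Ucp3 and both Ppargc1a probes lay between 0.02 and 0.28 (adjusted p of 0.679 or more). Without WT 3 and WT 4 r was 0.20 for Prdm16, 0.43 for Ucp3 and 0.50 and 0.51 for the Ppargc1a probes. Without hNAG-1 4 alone, r was -0.19 for A_52_P5945 of Ppargc1a, -0.0061 for Ucp3 and 0.23 for Prdm16. Without WT 3 alone, r was 0.46 for A_51_P279038 and 0.57 for A_52_P5945 of Ppargc1a. The Ucp2 probes lay between -0.09 and 0.34. Without WT 3 and WT 4 they had an r of 0.72 for A_51_P297105 (exact permutation p = 0.0573, n = 7), 0.94 for A_52_P499675 (exact permutation p = 0.00437, n = 7) and 0.39 for A_52_P90265, so that their r over 9 arrays rested on those 2 glands.

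**Figure D4:**
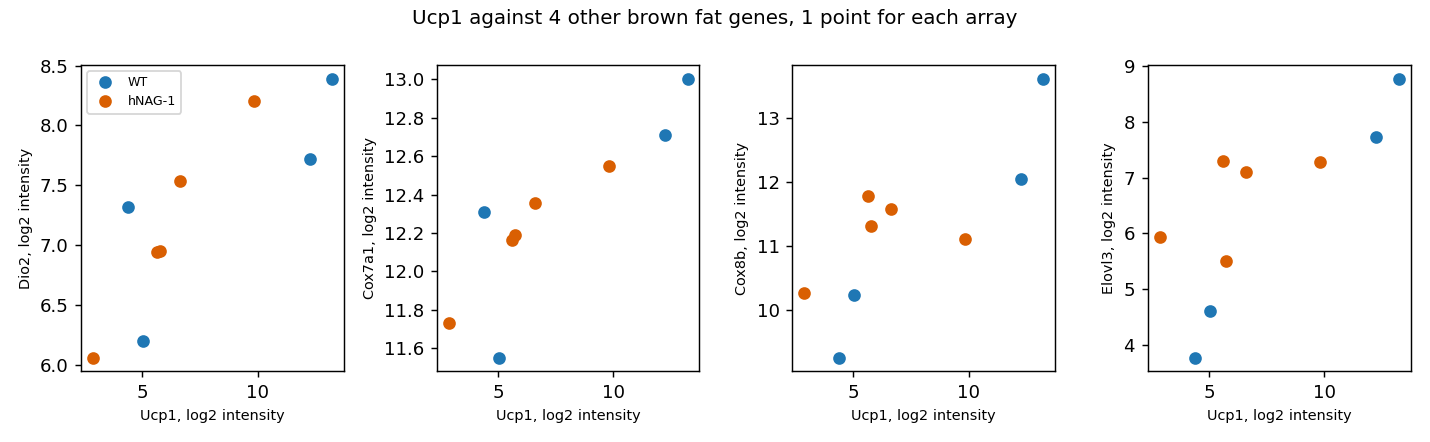
Log2 intensity of Dio2, Cox7a1, Cox8b and Elovl3 against log2 intensity of Ucp1, with 1 point for each of 9 arrays (WT blue, hNAG-1 orange). The 4 genes rise with Ucp1, with r between 0.77 and 0.87, and the genotypes are mixed along each axis; the lowest Ucp1 points of either genotype are not well above background.

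Several of these genes are also expressed in skeletal muscle, so 18 muscle markers were read beside them. Their summed intensity was 8195, 73140, 40849 and 253956 in WT and 8087, 5774, 74831, 5549 and 56873 in hNAG-1. WT 4, the gland with most Ucp1 and Cox8b, had the highest sum by far, but WT 2, with a Ucp1 of 32.6, had more muscle signal than WT 3. Within hNAG-1, glands 3 and 5 had the high sums and also the most Ucp1, whereas Cox8b was highest in hNAG-1 2, whose muscle sum was the second lowest of the 9. No marker was at background on all arrays, 11 of 18 were well above background on all 9, and Pvalb and Casq1 on 5.

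Over the 9 arrays the muscle list, by its mean centred log2 value and not by the sum above, had an r with Ucp1 of 0.74 (exact permutation p = 0.0278, adjusted p = 0.0882). Its rho was 0.63, and r was 0.62 within slides. All 18 muscle markers had a difference below 0, beside 52.1% of all probes, from -0.61 for Myh2 to -3.04 for Myh4, with a median of -1.91 (-0.59 with slide as a block). The median was -1.02 without WT 4 and -2.89 without WT 1. None had an unadjusted p under 0.05, where 5.6% of all probes did. The part of muscle RNA in the Ucp1 and Cox8b values was not tested.

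**Figure D5:**
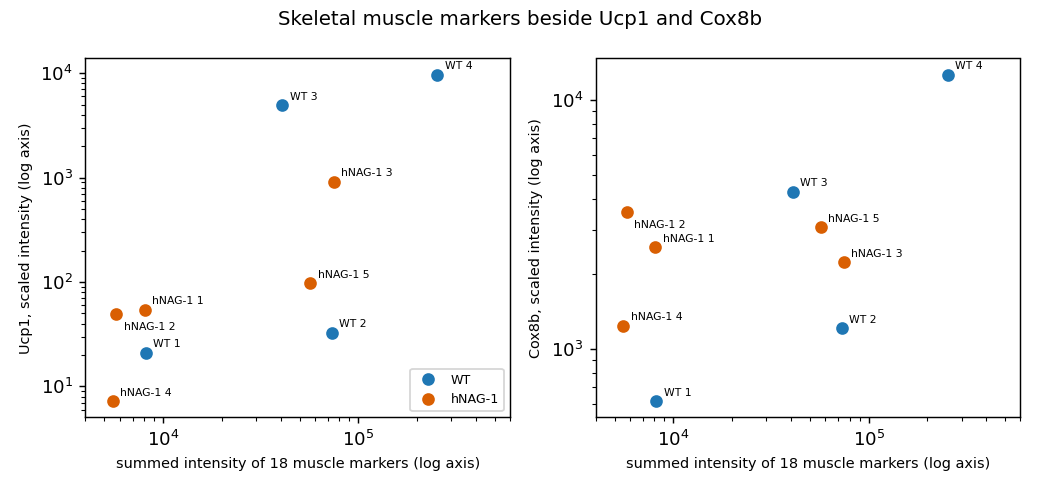
Scaled intensity of Ucp1 (left) and Cox8b (right) against the summed intensity of 18 skeletal muscle markers on each array, all on log axes, with WT in blue and hNAG-1 in orange. WT 4 is highest on both axes, while WT 2 combines 73140 of muscle signal with low Ucp1 and Cox8b, and hNAG-1 1 and hNAG-1 2 combine little muscle signal with a Cox8b of 2559 and 3547.

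The white adipocyte list, 15 genes, had an r with Ucp1 of 0.59 by its mean centred log2 value (exact permutation p = 0.0887, adjusted p = 0.193). Its summed intensities lay between 548851 and 961198 in WT and between 746767 and 889846 in hNAG-1. Luminal epithelium, 11 genes, had an r of 0.07, and leukocytes, 12 genes, had an r of -0.43 (adjusted p = 0.419). Over the 8 arrays centred on their slide, r was 0.66 for white adipocytes, 0.66 for luminal epithelium and -0.71 for leukocytes. All 15 white adipocyte genes and all 11 epithelial genes were above background on all 9 arrays. Of the 15 white adipocyte genes 12 had a difference above 0, beside 47.9% of all probes, with a median of 0.26 (0.16 with slide as a block, 0.09 without WT 1 and 0.44 without WT 4), and 1 was lower at an unadjusted p under 0.05, where 4.45% of all probes were. This was Pck1, which makes glycerol for fat storage in adipocytes, with a difference of -1.01 and an SE of 0.39 (unadjusted p = 0.0283 in limma), and the resistin gene Retn had the highest, 1.00 with an SE of 0.48. The epithelial differences lay between 0.02 for Cdh1 and 0.34 for Lalba, the α-lactalbumin gene, with a median of 0.12 that turned to -0.055 without WT 2. Among leukocyte genes 11 of 12 had a difference below 0, beside 52.1% of all probes, from Cd79b of B cells at -1.53 to Adgre1 of macrophages at 0.22, and none had an unadjusted p under 0.05, beside 5.6% of all probes. The leukocyte median of -0.68 was -0.11 without WT 2.

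Of 26 other genes of brown and beige fat, none was higher and 2 were lower in hNAG-1 at an unadjusted p under 0.05, where 1.15% and 4.45% of all probes were, and none passed after adjustment. The highest and lowest difference named for a list are those among genes that all arrays of WT or all arrays of hNAG-1 had above background. The median difference of the 26 was -0.05, and leaving out 1 array moved it between -0.13 and 0.05. Of the 26, 19 were above background on all 9 arrays and 2 on none. Those 2 were Zic1, a marker of classical brown fat, and Bmp8b, a brown fat growth factor. The list's mean had an r with Ucp1 of 0.76 (exact permutation p = 0.0147, adjusted p = 0.0566), which rested on WT 3 and WT 4, since r was 0.06 without them. Within slides it was 0.65.

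The lower 2 were Slc27a2 and Tnfrsf9. Slc27a2, an acyl-CoA synthetase and fatty acid transporter, read 51.5, 30.9, 94.5 and 57.5 in WT and 22.2, 32.1, 20.3, 19.5 and 18.4 in hNAG-1. It was above background on all 4 WT arrays but on only 2 of 5 hNAG-1 arrays, and is named here through WT, where it was higher. The difference of -1.30 (SE 0.31, adjusted p = 0.661 in limma) was therefore taken against hNAG-1 values mostly at background and gives no exact size. Tnfrsf9, also a costimulatory receptor of T cells, had a difference of -0.97 with an SE of 0.35, and -0.06 with slide as a block. The amino acid transporter gene Slc36a2, a brown fat surface marker, had the highest difference, 0.98 with an SE of 0.45 (exact permutation p = 0.103). Cidea, a lipid droplet protein of brown fat and of milk fat, had a difference of 0.07.

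Of 40 regulators, from adrenergic receptors to nuclear receptors and repressors, 2 were higher and none lower at an unadjusted p under 0.05, beside 1.15% and 4.45% of all probes, with a median of -0.04 (-0.08 without WT 2 and 0.04 without WT 4). Pparg, the master regulator of fat cell formation, read 2429, 2746, 3280 and 3589 in WT and 3778, 4613, 4065, 3668 and 3996 in hNAG-1. Every hNAG-1 array lay above every WT array, where 1.35% of all probes did not overlap in either direction. The difference was 0.43 with an SE of 0.16 (exact permutation p = 0.00794, the smallest possible, adjusted p = 0.661 in limma), and 0.33 with slide as a block. Pparg was named for its limma p on these same arrays, so the separation and the exact p are no further support. Gnas, which encodes the stimulatory G protein below the β-adrenergic receptors, had a difference of 0.48 with an SE of 0.21, which was 0.19 with slide as a block. Adrb3, the β-adrenergic receptor of fat cells, was near background, with values between 16.4 and 35.2, above background on 3 arrays. Irf4, a factor of thermogenic adipocytes and of lymphocytes, had the lowest difference, -0.78, and its highest value, 260, was in WT 2.

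Around Dio2, 11 genes of thyroid hormone handling held 1 with an unadjusted p under 0.05, beside 5.6% of all probes. Klf9, a transcription factor that thyroid hormone and glucocorticoid induce, read 1665, 1421, 1555 and 1807 in WT and 2037, 2641, 2888, 1918 and 2150 in hNAG-1. All hNAG-1 arrays lay above all WT arrays, where 1.35% of all probes did not overlap in either direction. The difference was 0.52 with an SE of 0.17 (exact permutation p = 0.0159, adjusted p = 0.661 in limma). Klf9 too was named for its limma p on these arrays, so the separation is no further support. Dio1, the type 1 deiodinase, had the lowest difference, -0.30, and Slco1c1, a thyroxine transporter, was not above background on any array. The receptor genes Thra and Thrb differed by 0.03 and -0.02.

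Around the uncoupling proteins, 12 related mitochondrial carriers held none with an unadjusted p under 0.05, beside 5.6% of all probes. Their differences ran from -0.29 for Slc25a14 to 0.84 for Slc25a1, the citrate carrier. Among 15 small oxidase subunits none had one either, beside the same share, and their median was -0.01 (-0.11 without WT 2 and 0.17 without WT 1). The ubiquitous Cox8a, the counterpart of Cox8b, differed by 0.13 with an SE of 0.17. Cox6a2, the subunit form of heart and skeletal muscle, read 113, 1340, 775 and 4962 in WT and 88.2, 48.2, 1245, 115 and 972 in hNAG-1, with a difference of -1.95 and an SE of 1.28. Its 5 high arrays, WT 2 to 4, hNAG-1 3 and hNAG-1 5, were the 5 with the highest sums of muscle markers.

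Around Elovl3, 14 of 16 genes of fatty acid elongation and desaturation had a difference above 0, beside 47.9% of all probes, with a median of 0.41 (0.15 with slide as a block and 0.15 without WT 2), and 3 were higher at an unadjusted p under 0.05, beside 1.15% of all probes. Tecr, which carries out the last step of the elongation cycle, read 13301, 8794, 10682 and 12212 in WT and 15653, 21299, 15958, 14149 and 14231 in hNAG-1. Every hNAG-1 array lay above every WT array, where 1.35% of all probes did not overlap in either direction. The difference was 0.53 with an SE of 0.18 (exact permutation p = 0.00794, adjusted p = 0.661 in limma). Tecr too was named for its limma p on these arrays, so the separation is no further support. Elovl6, the elongase of palmitate, differed by 0.84 with an SE of 0.33, and Hsd17b12, the ketoacyl reductase of the cycle, by 0.44 with an SE of 0.18. Hacd4 had the lowest difference, -0.28. WT 2, the WT array with the highest leukocyte sum, had the lowest summed intensity of this list, 229881, against 382360 to 718729 on the other 8 arrays. The part of cell composition in the list was not tested.

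The genes whose pattern over the 9 arrays was most like that of each probe were taken among 16074 genes above background on all arrays, by Pearson r of log2 intensity, as a description. For Dio2 they were BC010335 with an r of 0.97, LOC666794 and Col16a1, a collagen gene. For Cox7a1 they were Zfp503 with an r of 0.96, Ltbp3 and 5730405I09Rik, and for Cox8b Lrp3 with an r of 0.96, Mtap6 and 2810055F11Rik. Prdm16 was followed by Pls3 with an r of 0.93, Ier3 and 2810002G02Rik, and Ucp3 by 4933415L06Rik with an r of 0.96, Setbp1 and 9030617O03Rik. The nearest to the first Ppargc1a probe was Nr1d2, a nuclear receptor of the circadian clock, with an r of 0.93, and the nearest to the brightest Ucp2 probe was Dnajc14, with an r of 0.99. For the Ppargc1b probes the nearest were AK053988, Sbsn and Ahdc1, with an r between 0.95 and 0.96. No other gene of the set was among the 3 nearest of any of these probes. Ucp1 and Elovl3, not above background on all arrays, were not among the genes compared and could not appear.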

How the data were processed

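Gland RNA of 4 WT and 5 hNAG-1 dams was measured on 1-color Agilent 4x44 arrays. The authors deposited scanner output of Feature Extraction version 9.5.3.1 as background-subtracted intensity without scaling between arrays, and a series table whose intensity values were used as an alternative. The methods give an ANOVA at p under 0.05 with a fold of 1.5 and a minimum signal in 1 sample, and name no normalization. Controls were removed, repeated features of a probe averaged, each array scaled to the 75th percentile over its features (533 to 1185 as deposited, brought to 797) and log2 taken, for 41174 probes. Genotypes were compared in limma version 3.58.1 (R version 4.3.3; lmFit and eBayes, two-sided, no covariate, 7 residual degrees of freedom), adjusted by Benjamini-Hochberg over all probes. Samples were grouped by their labels, and p-values cover the spread between these mice. Read depth does not apply: the number of arrays limits the precision, and the lowest scaled intensity well above background was 14.4 to 31.7 by array.

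The genes and the 10 lists (176 entries, all matched to a probe; the brightest probe stands for a gene) were chosen with earlier results of these data known. Named are every probe of the 10 genes, Cidea, list genes with an unadjusted p under 0.05, the highest and lowest difference of a list among genes above background on every array of a genotype, and up to 3 genes most like each probe measured on all arrays. Zic1, Bmp8b, Adrb3, Thra, Thrb, Slco1c1, Pvalb, Casq1, Dkk1, Myh4 and Tnnc2 as items of spread or background were added after their values were seen. Coordinates of probes are those of the array design on mm7.

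On simulated data with 41174 probes, 200 of them changed, limma called 55.5% of 1.5-fold, 78% of 2-fold and 93.5% of 4-fold changes with an unadjusted p under 0.05, and 0%, 16% and 63.5% after adjustment. The noise was drawn for each probe on its own, at its residual SD, with no slide effect. These rates are means over 200 random probes and not those of a variable probe such as Ucp1, whose SE was 2.09. Alternatives covered background correction (normexp, offset 50), quantile and median scaling, a floor of 20, outlier flags, dim probes, eBayes with trend, the methods' test, a fixed or a random slide block, the arrays of slide 3, a replicate block, the series table, the mean over a gene's probes and each array left out.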

Additional observations from a re-analysis of the deposited data

How the results depend on the processing

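Apart from leaving out arrays, 107 of 194 differences of the 15 probes moved under an alternative, 90 of these kept their direction, and none of the 194 passed an unadjusted p under 0.05. Slide as a fixed block and slide 3 alone, which both rest on hNAG-1 5, turned Ucp3 to 0.83, Ppargc1a A_52_P5945 to 0.23, Dio2 to 0.10 and Ppargc1b to -0.15, -0.38 and -0.20. Median scaling, which moved the median of all probes from -0.02 to 0.20, turned Ucp3 to 0.024, Cox7a1 to 0.020 and Cox8b to 0.14, and gave 1 exact permutation p under 0.05 (Ucp2 A_51_P297105, 0.0476). Quantile normalization turned Ppargc1a A_52_P5945 to 0.019. The labels share replicate numbers, and the deviations of same-numbered arrays had a correlation of 0.28, -0.20, -0.14 and -0.31. Pairs of different numbers lay between -0.27 and 0.35, so this check cannot tell whether same-numbered arrays were paired. The replicate block, which drops hNAG-1 5, gave 5447 calls over all probes and turned Ppargc1a A_51_P279038 to -0.16.

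Over all probes, 2307 had an unadjusted p under 0.05, 20.5% of them higher in hNAG-1. The count was 1058 with normexp (52.6% higher), 3686 with median scaling (72.4%), 1475 with slide as a random block and 3723 on slide 3 alone (91.5%). The share was 57.5% with quantile normalization, 38.8% with a floor of 20, 36.9% with the methods' test, 90.8% with slide as a fixed block and 5.93% with the replicate block. After adjustment 1 probe passed, against 138 with slide as a fixed block and 215 without hNAG-1 5. None passed with normexp, quantile normalization, median scaling, eBayes with trend and robust, the methods' test, slide 3 alone or the replicate block, nor without any 1 of WT 1 to WT 3 and hNAG-1 1 to hNAG-1 4. Of the 176 list entries 9 were called, where 5.6% of all probes were, and 18 were called with median scaling.

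Leaving out each array in turn gave 1163 (without hNAG-1 2) to 5924 (without hNAG-1 5) calls over all probes, 4 (without hNAG-1 2) to 16 (without hNAG-1 5) among list genes, and 0 to 1 among the 15 probes. Differences that changed direction ran from -0.41 to 1.25 for Elovl3, -0.75 to 0.70 for Cox8b, -0.31 to 0.31 for Ppargc1a A_51_P279038, -0.67 to 0.059 for Dio2, -0.48 to 0.0068 for Cox7a1 and -0.45 to 0.013 for Ucp3. The causes were not tested. Ucp1 and Elovl3 values near background limit their folds.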
